A study of Homo sapiens with 9 samples.

Results

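The comparison described here sets HK-2 cells that received lactoferrin and then fine particulate matter (PM2.5) against untreated HK-2 cells. HK-2 is an immortalised line grown from human renal proximal tubule epithelium, so all 9 libraries of the study share 1 genetic background and 1 serum-free medium that holds pituitary extract and EGF. The members are 6 of the 9 libraries: 3 labelled untreated (control) and 3 from cells given lactoferrin for 6 h before PM2.5 for 18 h. The other 3 libraries come from cells given PM2.5 alone for 24 h, and they enter the fit and stand beside the results. Below, treated means lactoferrin plus PM2.5. Genes were compared where at least 3 of the 9 libraries reached 0.5 FPKM, which 14454 of the 58884 listed genes did. The series text gives doses of 40 mg/ml lactoferrin and 1 mg/ml PM2.5, printed as written; both look high for cell culture, and the unit could not be checked. No group with lactoferrin alone is analysed here, and PM2.5 time differs between the exposed groups, so the part of lactoferrin, of PM2.5 and of the shorter exposure in these differences cannot be told apart. The labels call the controls untreated, while the treatment protocol speaks of a vehicle. They do not say whether libraries of a group came from separate cultures, so p-values measure only the spread between these libraries, which may be technical.

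Lactoferrin is an iron-binding glycoprotein of milk and other secretions that is taken up through surface receptors, and PM2.5 carries metals and polycyclic aromatic compounds. In tubule cells, oxidants and electrophiles release the transcription factor NRF2 from its inhibitor KEAP1, aromatic ligands activate the aryl hydrocarbon receptor, and misfolded protein or amino acid shortage acts through heat shock factors and ATF4. Transforming growth factor beta and bone morphogenetic protein signals act through SMAD proteins on matrix and growth genes, and proximal tubule cells are a known site of such signalling in the injured kidney.

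The libraries held 15313828 to 18820337 assigned reads, rebuilt from the FPKM. The first principal component carried 54.4% of the variance. Control replicate 3 and lactoferrin plus PM2.5 replicate 1 stood apart from their groups, on the third component (27.0 for that control) and the second (38.1 for that library, against 7.9 and -7.1 for the other 2). Replicate pairs differed by a median of 0.117 to 0.216 log2 units among controls and 0.143 to 0.266 among lactoferrin plus PM2.5 libraries. Counts of list members, and list medians, that are printed below are also given without these 2 libraries where they moved by over 1.5 times. The expression of the lactoferrin gene itself, LTF, was listed at 0 in all 6 libraries compared, so no transcript of the cells' own lactoferrin gene was detectable at this depth.

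Many of the genes tested differed between the groups, and the changes ran both ways. A gene is called here when the adjusted p of limma (Benjamini-Hochberg over all genes tested) is under 0.05, and each fold change is a difference of log2(FPKM + 0.5) values, so that changes of low genes come out too small. Of 14454 genes, 2946 rose (20.4%) and 2624 fell (18.2%), 38.5% together. At least 2-fold changes were fewer, with 505 genes higher (3.49%) and 586 lower (4.05%), and 68 and 57 genes changed by at least 4-fold. The median log2 fold change of all genes was 0.00 and the median size among called genes was 0.61. In 6859 genes (47.5%) the 3 libraries of a group lay wholly above or below those of the other, and this held for 5401 of the 5570 called genes. Separate groups are therefore no further support for a called gene.

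**Figure D1:**
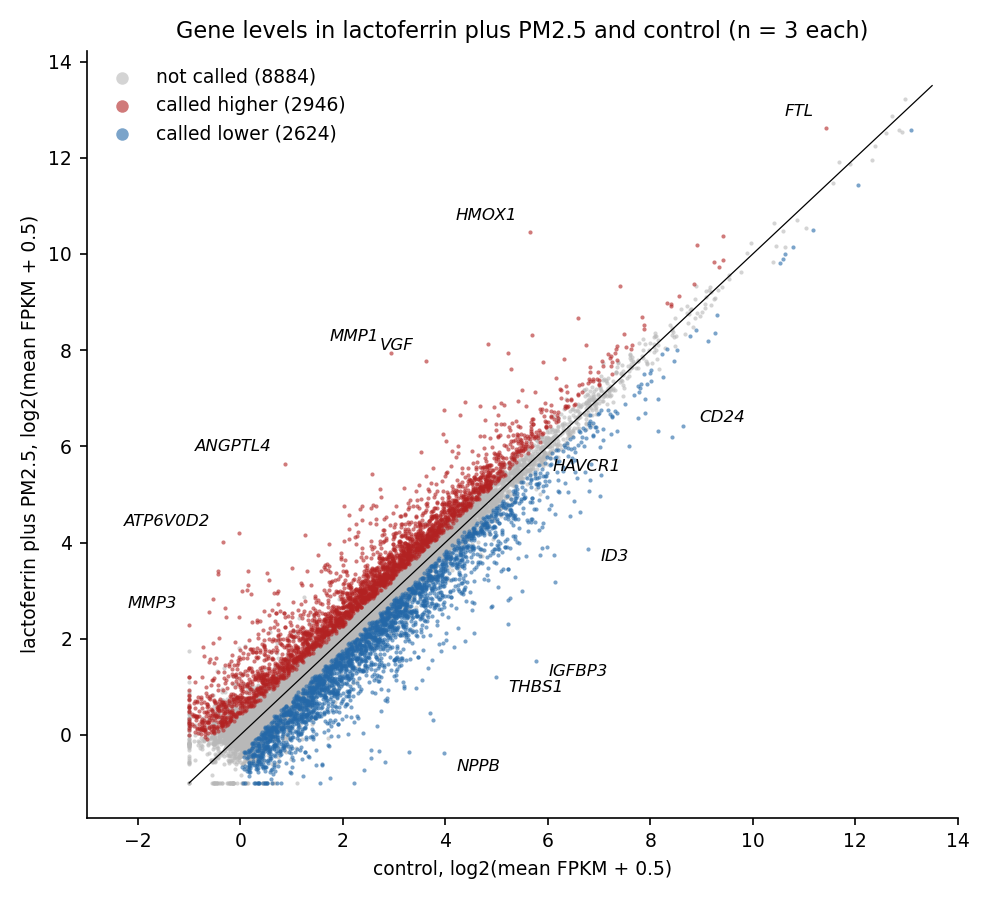
Mean level of each of the 14454 tested genes in control (horizontal axis) and in lactoferrin plus PM2.5 libraries (vertical axis), both as log2(mean FPKM + 0.5) over 3 libraries, with called genes in colour and the diagonal marking equal levels. HMOX1 and MMP1 lie far above the diagonal, at log2 fold changes of 4.77 and 4.96, and NPPB and IGFBP3 far below it, at -4.38 and -4.27.

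The largest increases were in a secreted protease, a heme-degrading enzyme and lipid, clotting and cytokine genes. MMP1, interstitial collagenase (ENSG00000196611, chromosome 11, 102789920 to 102798160, minus strand), had 7.36, 6.495 and 7.71 FPKM in the controls and 235, 240.5 and 258 after lactoferrin and PM2.5, and its log2 fold change 4.96 ± 0.10 (SE), adjusted p = 1.23e-08. HMOX1, which encodes heme oxygenase 1 (chromosome 22, 35380361 to 35394214), went from 55.6, 50.5 and 43.04 to 1502, 1423 and 1272 FPKM, log2 fold change 4.77 ± 0.13 (SE), adjusted p = 5.63e-08. For both genes the lowest treated library was many times above the highest control. ANGPTL4, a secreted inhibitor of lipoprotein lipase, measured 1.35, 1.196 and 1.41 FPKM in control and 40.8, 53.4 and 53.4 FPKM in treated libraries, log2 fold change 4.73 ± 0.12 (SE), adjusted p = 5.63e-08. Transcripts of THBD (thrombomodulin, an anticoagulant surface receptor) were at 0.493, 0.353 and 0.586 and 13.9, 19.4 and 20.02 FPKM, log2 fold change 4.19 ± 0.22 (SE), adjusted p = 2.02e-06. The neuroendocrine secreted precursor VGF gave 10.1, 12.4 and 12.8 and 157, 249 and 253 FPKM, log2 fold change 4.103 ± 0.19 (SE), adjusted p = 1.15e-06. Only called genes with a symbol, a mean FPKM of at least 2 and groups that did not overlap could enter the 15 largest increases, to which these 5 belong.

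Several genes near the detection limit in controls rose to clear levels. ATP6V0D2, a subunit of the proton pump of lysosomes, had 0.1999, 0.452 and 0.214 FPKM in control and 16.8, 14.9 and 14.9 FPKM in treated libraries, log2 fold change 4.34 ± 0.14 (SE), adjusted p = 2.71e-07. MMP3, stromelysin 1, was listed at 0 in every control library and at 4.16, 4.59 and 4.42 FPKM after treatment, an adjusted p of 4.4e-07; against 0 no fold is given. CSF2, the cytokine GM-CSF, stood at 0.414, 0.6897 and 0.728 and 10.7, 9.98 and 9.84 FPKM, log2 fold change 3.25 ± 0.14 (SE), adjusted p = 8.2e-07. FCER1G, an immune receptor chain, had 0.203, 0.251 and 0.476 and 6.99997, 4.71 and 5.34 FPKM, log2 fold change 2.91 ± 0.17 (SE), adjusted p = 4.06e-06. The transporter gene SLC16A6 (log2 fold change 3.15), TM4SF19 (2.93) and 2 pseudogenes, DDX39BP2 (3.98) and BANF1P2 (2.97), also stayed under 1 FPKM in every control. Reads of the pseudogenes may be shared with near-identical parent genes. The lipase inhibitor gene G0S2 started higher, at 28.1, 26.2 and 30.04 FPKM in control, and rose by 3.24 on the log2 scale. HSPA6, described with the chaperones below, is the last of the 15.

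The largest decreases, under the same limits, were in secreted growth factors, peptides and matrix proteins. NPPB, the precursor of brain natriuretic peptide (chromosome 1, 11857464 to 11858931, minus strand), fell from 16.6, 14.6 and 14.7 FPKM to 0.225, 0.329 and 0.269 FPKM, log2 fold change -4.38 ± 0.17 (SE), adjusted p = 4.98e-07. IGFBP3, the main binding protein of insulin-like growth factors (chromosome 7, 45912245 to 45921874, minus strand), was at 55.3, 55.1 and 51.2 FPKM in controls and 2.17, 2.37 and 2.63 FPKM in treated libraries, log2 fold change -4.27 ± 0.08 (SE), adjusted p = 1.23e-08. THBS1, thrombospondin 1 (chromosome 15, 39581079 to 39599466), had 28.3, 30.2 and 35.2 and 1.18, 2.07 and 2.11 FPKM, log2 fold change -3.85 ± 0.19 (SE), adjusted p = 1.49e-06. In each of these the highest treated library lay far under the lowest control. EDN1, the vasoconstrictor endothelin 1, measured 5.39, 5.67 and 7.01 and 0.261, 0.258 and 0.375 FPKM, log2 fold change -3.06 ± 0.15 (SE), adjusted p = 1.65e-06. FGFR2, a receptor for fibroblast growth factors, gave 4.86, 5.64 and 5.45 and 0.252, 0.246 and 0.403 FPKM, log2 fold change -2.895 ± 0.12 (SE), adjusted p = 4.98e-07. CRABP2, which carries retinoic acid to its receptor, was at 49.4, 40.5 and 43.7 and 7.96, 8.24 and 6.05 FPKM, log2 fold change -2.55 ± 0.13 (SE), adjusted p = 1.84e-06.

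Others among the 15 largest decreases were NCKAP5 (-3.66), the antimicrobial peptide gene DEFB1 (-3.600), FILIP1L (-3.33), ZBED2 (-3.17) and the noncoding LINC02274 (-2.995), each as a log2 fold change. DEFB1 varied widely within groups, at 19.3, 12.4 and 7.49 FPKM in control and 1.7003, 0.155 and 0.339 FPKM in treated libraries, though without overlap. TGFB2 and ID3, described below, belong to the 15 too. The short noncoding genes MIR1281, listed at 0 in all 3 treated libraries, and RNU1-70P complete the set. MIR1281 spans 54 bases, so its 3.63, 5.59 and 3.18 FPKM in control stand for few reads.

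**Figure D2:**
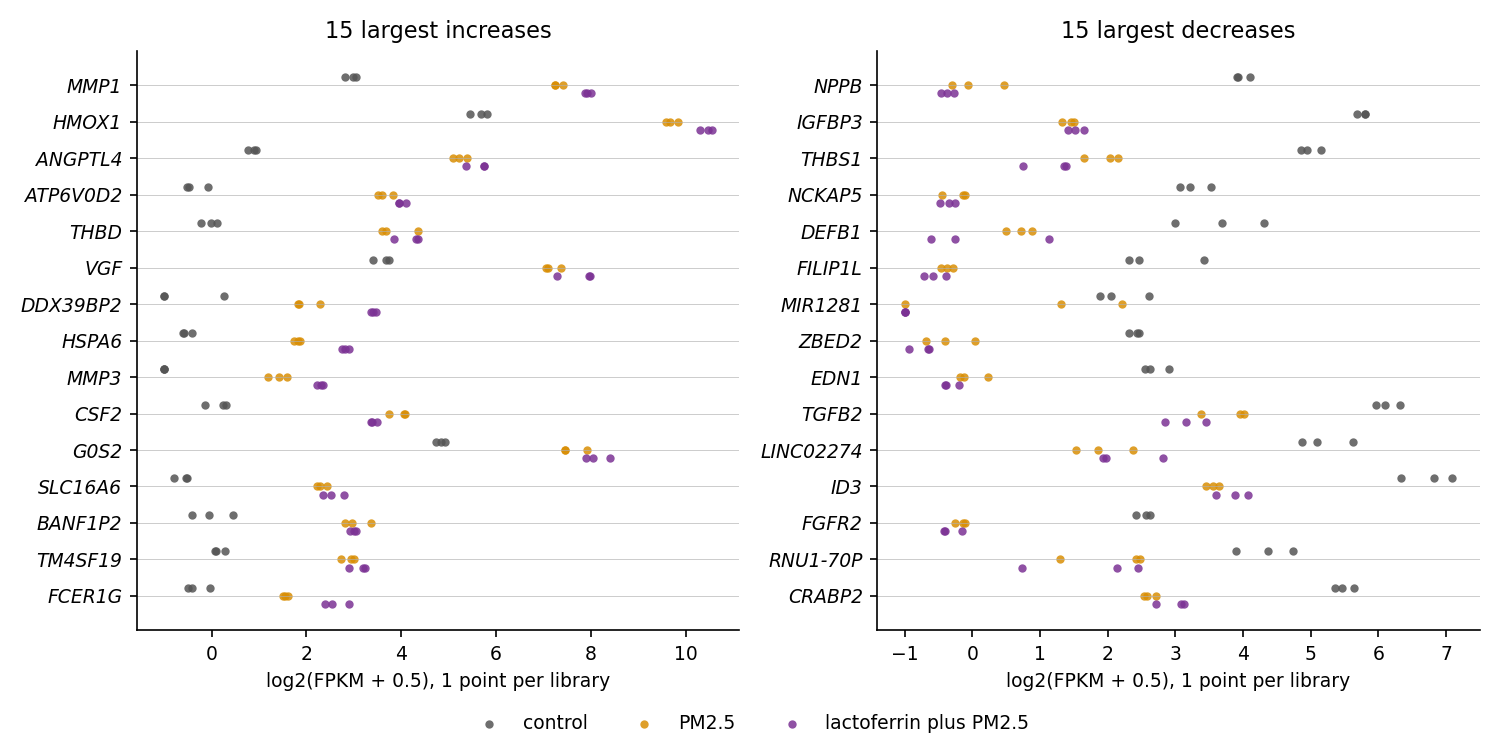
Level of the 15 genes with the largest increases (left) and decreases (right) in each library, as log2(FPKM + 0.5), with 1 point per library and colours for control, PM2.5 alone and lactoferrin plus PM2.5. Control and lactoferrin plus PM2.5 points are apart in every row, as the choice of these genes required, and in every row but MIR1281 the PM2.5 points lie clear of the controls on the same side, as for MMP1 at means of 7.19, 158 and 244 FPKM.

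Genes of the NRF2 antioxidant response rose together: 29 of 31 tested members were called higher and 1 lower, with a median log2 fold change of 1.17. For all 14454 genes the shares called higher and lower were 20.4% and 18.2% and the median was 0.00. NQO1, a quinone reductase, had 44.2, 35.9 and 30.5 FPKM in controls and 279, 240.2 and 213 FPKM in treated libraries, log2 fold change 2.68 ± 0.15 (SE), adjusted p = 2.75e-06. TXNRD1, thioredoxin reductase, was at 35.4, 37.4 and 42.9997 and 182, 191 and 208 FPKM, log2 fold change 2.28 ± 0.11 (SE), adjusted p = 1.4e-06. GCLM, the regulatory subunit of glutathione synthesis, gave 16.8, 17.6 and 15.8 and 46.99, 45.9 and 50.8 FPKM, log2 fold change 1.45 ± 0.07 (SE), adjusted p = 1.2e-06. All treated libraries exceeded all controls for these 3 genes, but most called genes had separate groups. At least 2-fold increases were seen in 16 members. SLC7A11, the cystine importer, rose less evenly, from 2.51, 3.27 and 2.84 to 6.15, 7.03 and 11.3 FPKM (1.29 on the log2 scale). The single member called lower was ABCC1, an exporter of glutathione conjugates, at 10.9, 12.05 and 11.5 and 5.87, 8.54 and 10.1 FPKM; its log2 fold change of -0.53 had an adjusted p of 0.0199, and the call was lost without control replicate 2 or control replicate 3.

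TXNRD1 is shown because it is the member with the largest change among those with the motif in the window below, which runs from 250 bases before to 50 bases after the RefSeq start (chr12:104215529-104215828, plus strand, GRCh38.p14). Capitals mark matches to TGACNNNGC on either strand. Of 27305 promoters of this length 13.6% held a match, and 5 of the 20 NRF2 list members with a promoter sequence did, a description of letters and not of binding.
TXNRD1: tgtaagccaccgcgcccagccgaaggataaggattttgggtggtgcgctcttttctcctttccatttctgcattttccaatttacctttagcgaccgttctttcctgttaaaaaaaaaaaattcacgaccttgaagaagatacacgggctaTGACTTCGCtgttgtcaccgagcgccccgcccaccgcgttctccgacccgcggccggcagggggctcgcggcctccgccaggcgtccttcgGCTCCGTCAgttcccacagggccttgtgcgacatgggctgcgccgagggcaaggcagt

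Aryl hydrocarbon receptor targets showed 7 of 11 members higher and 0 lower (median 0.89), beside 20.4% and 18.2% of all genes. Without control replicate 3 and lactoferrin plus PM2.5 replicate 1 the count lower was 2. CYP1A1, which oxidises polycyclic aromatics, had 0.117, 0.126 and 0.0853 FPKM in control and 2.498, 2.77 and 2.53 FPKM in treated libraries, log2 fold change 2.34 ± 0.10 (SE), adjusted p = 7.56e-07. CYP1B1, a related enzyme, was at 4.06, 4.04 and 4.78 and 16.9, 19.7 and 24.4 FPKM, log2 fold change 2.07 ± 0.14 (SE), adjusted p = 8e-06. Neither gene had overlapping groups, as held for most called genes. NQO1 belongs to both lists and STC2 rose by 1.18.

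Of 20 iron handling genes 13 were called higher and 4 lower, beside 20.4% and 18.2% of all genes. The ferritin chains rose: FTH1, the heavy chain, from 219, 179 and 109 to 771, 654 and 517 FPKM (log2 fold change 1.94 ± 0.25 (SE), adjusted p = 0.000378), and FTL, the light chain, from 3436, 2805 and 1978 to 7806, 6026 and 5026 FPKM (log2 fold change 1.17 ± 0.23 (SE), adjusted p = 0.00384). Both have many processed copies in the genome, so their reads may be split. Called lower were NCOA4, the receptor that delivers ferritin to lysosomes, at 163, 166 and 161 and 105, 101 and 105 FPKM (log2 fold change -0.69 ± 0.08 (SE), adjusted p = 0.000252), and the iron exporter SLC40A1 at 2.43, 2.399 and 1.72 and 1.23, 1.103 and 1.28 FPKM (log2 fold change -0.67 ± 0.13 (SE), adjusted p = 0.00309). IREB2 and SLC25A37 fell by smaller amounts (-0.47 and -0.33). The transferrin receptor TFRC had 47.4, 50.9 and 50.5 and 32.995, 47.2 and 56.8 FPKM and an adjusted p of 0.371.

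Metallothioneins and zinc transporters gave 8 of 16 members higher and 1 lower (median 0.42), where all genes gave 20.4% and 18.2%. The zinc exporter SLC30A1 was at 25.2, 25.2 and 20.4 and 37.2, 46.6 and 58.1 FPKM, log2 fold change 0.94 ± 0.14 (SE), adjusted p = 0.000867. MT2A, the main metallothionein, had 606, 466 and 380.5 FPKM in control and 1406, 1164 and 907 FPKM in treated libraries, log2 fold change 1.23 ± 0.22 (SE), adjusted p = 0.00237. The member that fell was the zinc importer SLC39A10, from 33.6, 37.6 and 39.8 to 8.13, 9.796 and 13.4 FPKM, log2 fold change -1.84 ± 0.17 (SE), adjusted p = 5.19e-05. MT1 genes resemble each other closely, so reads may be divided among them.

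MT2A is shown because it had the largest change of the members that hold the metal response motif in the same kind of window (chr16:56608334-56608633, plus strand, GRCh38.p14). Capitals mark 8 matches to TGCACNC or TGCGCNC on either strand. The share with a match was 29.3% of all promoters and 5 of the 10 members with a sequence.
MT2A: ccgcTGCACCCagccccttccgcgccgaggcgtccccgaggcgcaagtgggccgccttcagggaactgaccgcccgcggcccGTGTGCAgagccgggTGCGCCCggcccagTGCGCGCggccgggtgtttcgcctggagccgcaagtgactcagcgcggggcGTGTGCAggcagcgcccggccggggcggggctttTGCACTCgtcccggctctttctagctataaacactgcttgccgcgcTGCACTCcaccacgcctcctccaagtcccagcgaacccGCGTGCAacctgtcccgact

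Amino acid and endoplasmic reticulum stress genes rose more often than all genes, of which 20.4% were called higher and 18.2% lower. Of 29 ATF4 targets 22 were called higher and 1 lower (median 0.84), of 25 unfolded protein response genes 14 higher and 0 lower (0.42), and of 20 cytosolic aminoacyl-tRNA synthetases 14 higher and 1 lower (0.42). Without control replicate 3 and treated replicate 1 2 synthetases were lower. GDF15, a stress cytokine, had 15.2, 14.4 and 15.8 FPKM in control and 106, 116 and 102 FPKM in treated libraries, log2 fold change 2.76 ± 0.15 (SE), adjusted p = 2.4e-06. TRIB3, a pseudokinase that ATF4 induces, was at 21.1, 21.7 and 14.5 and 99.9, 106 and 94.7 FPKM, log2 fold change 2.35 ± 0.15 (SE), adjusted p = 5.29e-06. DDIT3, the transcription factor CHOP, stood at 13.7, 13.95 and 11.4 and 55.5, 44.3 and 39.9 FPKM, log2 fold change 1.75 ± 0.13 (SE), adjusted p = 1.29e-05. The groups were apart for all 3, as for most called genes. Of the chaperone side, HERPUD1 rose by 1.07 and DNAJB9 by 1.15, and of the synthetases WARS1 by 0.91. The 2 members called lower were the lipoprotein receptor VLDLR (-0.42, call lost without control replicate 2) and the synthetase QARS1 (-0.30).

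CHAC1, which breaks down glutathione, is printed as the ATF4 target with the largest change among those holding the motif (chr15:40953221-40953520, plus strand, GRCh38.p14). Its FPKM were 3.41, 3.15 and 1.84 in control and 8.11, 10.3 and 7.38 in treated libraries. Capitals mark the match to TGATGNAA, found on the opposite strand. The motif occurs in 3.67% of promoters and in 3 of 23 members with a sequence.
CHAC1: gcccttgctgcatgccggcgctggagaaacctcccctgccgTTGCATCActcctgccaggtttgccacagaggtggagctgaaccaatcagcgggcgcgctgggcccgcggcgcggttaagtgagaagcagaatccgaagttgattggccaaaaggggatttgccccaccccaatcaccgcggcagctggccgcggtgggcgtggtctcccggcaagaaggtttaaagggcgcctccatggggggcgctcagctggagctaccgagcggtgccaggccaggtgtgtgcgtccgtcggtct

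Protein quality control genes followed the same direction, with counts to be set beside 20.4% higher and 18.2% lower among all genes. Of 26 heat shock proteins and co-chaperones 16 rose and 1 fell (median 0.52), and of 32 proteasome subunits 16 rose and 0 fell (median 0.39), with 31 of 32 estimates above 0. Without control replicate 3 and treated replicate 1 12 proteasome subunits rose, with a median of 0.22. HSPA6, a stress-inducible Hsp70, was at 0.2496, 0.154 and 0.1704 FPKM in control and 6.23, 6.48 and 6.91 FPKM in treated libraries, log2 fold change 3.33 ± 0.09 (SE), adjusted p = 5.63e-08. HSPA1B had 16.2, 18.2 and 16.5 and 57.6, 62.1 and 59.04 FPKM, log2 fold change 1.75 ± 0.10 (SE), adjusted p = 4.08e-06. Its near-identical copy HSPA1A rose by 1.75, and reads may be divided between the pair. BAG3, a co-chaperone, rose by 1.14. Among proteasome subunits PSMD3 rose by 0.65 and PSMD11 by 0.44; the count higher was 8 without control replicate 2. HSPA2 fell by 0.26, and that call was lost on leaving out any of 8 single libraries.

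HSPA6 is printed as the chaperone with the largest change among those with a match in the window (chr1:161524290-161524589, plus strand, GRCh38.p14). Capitals mark 2 positions matching GAANNTTC, which reads the same on both strands. The motif is in 6.87% of promoters and in 10 of the 23 members with a sequence.
HSPA6: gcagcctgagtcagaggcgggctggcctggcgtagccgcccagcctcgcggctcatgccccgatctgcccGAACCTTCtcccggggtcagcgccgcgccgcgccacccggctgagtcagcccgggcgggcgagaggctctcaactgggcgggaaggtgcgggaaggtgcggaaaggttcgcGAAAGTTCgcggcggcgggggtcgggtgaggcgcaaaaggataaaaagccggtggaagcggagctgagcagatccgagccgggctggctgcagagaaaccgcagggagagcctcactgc

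Lysosome genes rose more often than they fell. Of 43 autophagy and lysosome genes 21 were higher and 4 lower (median 0.31), beside 20.4% and 18.2% of all genes. Of 21 proton pump subunits 13 were higher and 0 lower (median 0.55). SQSTM1, the autophagy receptor p62, had 26.5, 25.8 and 22.6 FPKM in controls and 120.4, 115 and 106 FPKM in treated libraries, log2 fold change 2.13 ± 0.11 (SE), adjusted p = 1.66e-06. CTSL, a lysosomal protease, was at 48.4, 47.4 and 57.5 and 299, 321 and 330.1 FPKM, log2 fold change 2.59 ± 0.12 (SE), adjusted p = 1.28e-06. MAP1LC3B, the LC3B gene, measured 26.4, 24.9 and 20.7 and 56.1, 49.3 and 46.7 FPKM, log2 fold change 1.03 ± 0.11 (SE), adjusted p = 9.5e-05. The groups of all 3 were separate, as in most called genes. Called lower were GABARAPL1, an LC3 relative, from 62.4, 58.8 and 48.4 to 20.2, 18.9 and 17.1 FPKM (log2 fold change -1.599 ± 0.10 (SE), adjusted p = 5.48e-06), the transcription factor MITF (-1.14), the autophagy kinase ULK1 (-0.91) and the receptor OPTN (-0.56). OPTN lost its call without control replicate 3 or without treated replicate 2 or 3. ATG5 and BECN1, which act in autophagosome formation, had adjusted p of 0.593 and 0.929.

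**Figure D3:**
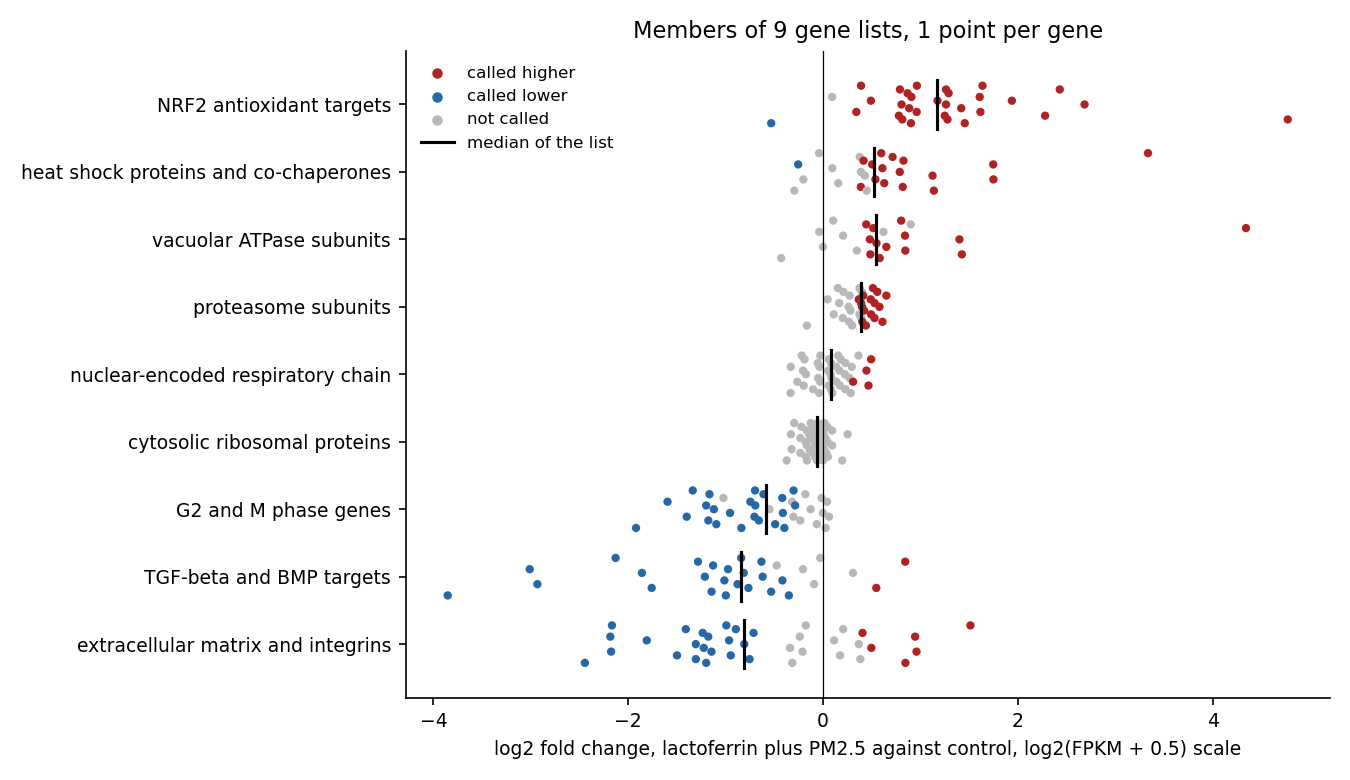
Log2 fold change of each tested member of 9 gene lists (1 point per gene), lactoferrin plus PM2.5 against control, coloured by call, with a bar at the list's median. NRF2 targets lie to the right (median 1.17) and TGF-beta targets to the left (median -0.84), while none of the 46 ribosomal protein genes was called.

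Targets of TGF-beta and bone morphogenetic proteins fell: 22 of 29 tested genes were called lower and 2 higher (median -0.84), beside 18.2% and 20.4% of all genes. TGFB2, a ligand of the pathway, had 61.8, 67.96 and 79.2 FPKM in controls and 6.69, 8.39 and 10.4 FPKM in treated libraries, log2 fold change -3.01 ± 0.19 (SE), adjusted p = 5.59e-06. ID3, an inhibitor of helix-loop-helix factors that bone morphogenetic proteins induce, was at 136, 113 and 80.4 and 16.3, 14.3 and 11.7 FPKM, log2 fold change -2.93 ± 0.18 (SE), adjusted p = 4.5e-06. SMAD9, a transducer of the same branch, measured 2.29, 2.48 and 2.11 and 0.149, 0.112 and 0.189 FPKM, log2 fold change -2.13 ± 0.13 (SE), adjusted p = 4.09e-06. Treated libraries lay below controls in each, and most called genes had groups that were likewise separate. The 2 members that rose were GREM1, an antagonist of bone morphogenetic proteins, at 16.5, 18.3 and 19.5 and 29.3, 33.4 and 38.7 FPKM (log2 fold change 0.84 ± 0.11 (SE), adjusted p = 0.000378), and the accessory receptor TGFBR3 (0.55).

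YAP-TEAD targets gave 15 of 22 lower and 2 higher (median -0.54), beside 18.2% and 20.4% of all genes. CCN2, connective tissue growth factor, fell from 109.7, 113 and 109 to 28.4, 36.8 and 34.8 FPKM, log2 fold change -1.76 ± 0.13 (SE), adjusted p = 1.42e-05. NT5E, the ectoenzyme CD73, moved against the others, from 3.33, 3.597 and 3.71 to 22.7, 27.3 and 29.6 FPKM, log2 fold change 2.700 ± 0.10 (SE), adjusted p = 4.6e-07. DLC1 also rose (0.49), a call lost without any 1 of the 3 controls or without treated replicate 2 or 3. CCN2 is also counted among the TGF-beta targets, so the counts of these lists are not independent of each other.

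Among extracellular matrix and integrin genes 21 of 37 fell and 6 rose (median -0.81), where 18.2% of all genes fell and 20.4% rose. Without control replicate 3 and treated replicate 1 19 of 35 fell and 9 rose, with a median of -0.43. COL1A1, a collagen I chain, was at 6.16, 6.19 and 7.98 FPKM in control and 0.915, 1.18 and 1.31 FPKM in treated libraries, log2 fold change -2.18 ± 0.13 (SE), adjusted p = 4.5e-06. SPARC, a collagen-binding matrix protein, had 270.1, 274 and 306 and 114, 128 and 137 FPKM, log2 fold change -1.200 ± 0.10 (SE), adjusted p = 2.76e-05. LAMB3, a laminin-332 chain, went the other way, with 9.05, 8.98 and 9.33 and 21.8, 30.9 and 31.2 FPKM, log2 fold change 1.51 ± 0.12 (SE), adjusted p = 2.5e-05. The integrin genes ITGB5 (0.96) and ITGA3 (0.94) and COL6A1 (0.84) rose too. ITGA5 and ITGA6 were higher too, but both calls were lost without control replicate 1 or 2 or treated replicate 2 or 3, that of ITGA5 also without control replicate 3 and that of ITGA6 also without any 1 PM2.5 library. Metalloproteinases and inhibitors split, 6 higher and 5 lower of 15: besides MMP1 and MMP3, the inhibitor TIMP1 rose by 0.71, while MMP7 (-1.41) and ADAMTS15 (-1.73) fell.

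Junction and keratin genes fell in 14 of 26 cases and rose in 3 (median -0.49), beside 18.2% and 20.4% of all genes. CDH6, a kidney cadherin, had 43.2, 47.8 and 50.6 and 9.69, 12.5 and 15.7 FPKM, log2 fold change -1.92 ± 0.16 (SE), adjusted p = 2.35e-05, and JUP, plakoglobin, 21.02, 21.03 and 20.1 and 5.81, 6.57 and 6.92 FPKM, log2 fold change -1.65 ± 0.09 (SE), adjusted p = 2.45e-06. CLDN4 and CTNNB1 rose by 0.76 and 0.52. Insulin-like growth factor genes gave 7 of 14 lower and 0 higher, led by IGFBP3, with IGF1R, the receptor, at -1.14.

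Inflammatory genes moved in both directions. NF-kB targets and cytokines counted 7 of 30 higher and 11 lower (median -0.13, and -0.09 without control replicate 3 and treated replicate 1). Of all genes 20.4% were higher and 18.2% lower. IL6 had 69.8, 69.9 and 77.97 FPKM in controls and 70.1, 68.9 and 67.7 FPKM in treated libraries, with overlapping groups, log2 fold change -0.11 and adjusted p 0.419; with PM2.5 alone it averaged 114 FPKM. CXCL8, interleukin 8, was at 175, 179 and 123 and 169, 131 and 128 FPKM, log2 fold change -0.18 ± 0.16 (SE), adjusted p = 0.412; its adjusted p was 0.00805 without control replicate 3 and treated replicate 1. VCAM1, an adhesion molecule, fell from 4.22, 4.44 and 4.84 to 1.19, 1.47 and 1.86 FPKM, log2 fold change -1.36 ± 0.12 (SE), adjusted p = 3.83e-05, and the apoptosis inhibitor gene BIRC3 from 2.56, 3.197 and 3.55 to 0.989, 0.9299 and 1.12 FPKM, log2 fold change -1.27 ± 0.16 (SE), adjusted p = 0.000372. CXCL2, a neutrophil chemokine, rose from 18.3, 17.02 and 13.1 to 31.2, 27.9 and 31.6 FPKM, log2 fold change 0.86 ± 0.12 (SE), adjusted p = 0.000453, and CSF1 by 0.98.

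Interferon-stimulated and antigen presentation genes were 9 of 29 higher and 5 lower (median 0.20, and 0.08 without control replicate 3 and treated replicate 1). Over all tested genes the shares were 20.4% and 18.2%, not far from these counts. TAP1, a peptide transporter, rose from 3.89, 4.05 and 3.41 to 8.38, 8.39 and 8.17 FPKM, log2 fold change 1.01 ± 0.07 (SE), adjusted p = 1.21e-05. The groups of TAP1 did not overlap, which held for most called genes. Of 18 complement and coagulation genes 9 rose and 4 fell: besides THBD, PLAU, the urokinase gene, rose by 1.35, and F3, tissue factor, fell to 3.33, 4.66 and 5.18 FPKM from 9.84, 11.1 and 12.5 FPKM, log2 fold change -1.302 ± 0.15 (SE), adjusted p = 0.00016.

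Kidney injury genes were 4 of 18 higher and 7 lower (median -0.14), beside 20.4% and 18.2% of all genes. HAVCR1, the injury marker KIM-1, was lower, with 166, 183 and 229 FPKM in controls and 53.9, 63.2 and 74.4 FPKM in treated libraries, log2 fold change -1.62 ± 0.16 (SE), adjusted p = 9.11e-05. CD24, a surface glycoprotein linked to tubular progenitor cells, was at 446, 432 and 309.8 and 87.5, 85.2 and 83.5 FPKM, log2 fold change -2.22 ± 0.13 (SE), adjusted p = 4.06e-06. SOX4, a progenitor-linked transcription factor, had 65.7, 69.9 and 52.8 and 12.03, 14.8 and 16.98 FPKM, log2 fold change -2.11 ± 0.13 (SE), adjusted p = 4.72e-06. The cell cycle inhibitor CDKN1A rose from 35.3, 31.6 and 24.1 to 115, 116 and 107 FPKM, log2 fold change 1.86 ± 0.13 (SE), adjusted p = 8e-06. Of the lactoferrin receptor genes, LRP1 fell, 11.6, 11.6 and 11.5 to 3.26, 6.38 and 8.23 FPKM (log2 fold change -1.02 ± 0.23 (SE), adjusted p = 0.00803). NCL, nucleolin, had 129.6, 135 and 219 and 210.2, 176 and 176 FPKM and adjusted p 0.449, which was 0.0222 without control replicate 3. LRP2 and ITLN1 stayed near 0 in all libraries.

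EGF receptor ligands, receptors and MAPK feedback genes rose in 16 of 25 cases and fell in 5 (median 0.60). Among all genes 20.4% rose and 18.2% fell. DUSP6, an ERK phosphatase, had 10.9, 10.2 and 11.96 and 53.9, 58.8 and 61.5 FPKM, log2 fold change 2.31 ± 0.09 (SE), adjusted p = 4.98e-07, PHLDA1 1.54 and DUSP5 1.63. The 5 that fell were the ligand HBEGF (-1.21), the receptor genes EGFR (-1.21) and ERBB2 (-0.87), the phosphatase DUSP1 (-0.59) and the receptor inhibitor ERRFI1 (-0.40). AP-1 and immediate early factors were 9 of 19 higher and 4 lower, with FOSL1 at 15.5, 16.6 and 23.03 and 57.8, 69.3 and 65.4 FPKM, log2 fold change 1.76 ± 0.16 (SE), adjusted p = 3.83e-05, and MAFG at 1.34.

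Cell division genes were lower: 23 of 36 genes of G2 and M phase fell and 0 rose (median -0.58), and 25 fell without control replicate 3 and treated replicate 1. In these bulk samples fewer dividing cells and less RNA per cell cannot be told apart. KIF20A, a mitotic kinesin, was at 15.8, 15.3 and 16.9 FPKM in controls and 6.72, 7.26 and 6.62 FPKM in treated libraries, log2 fold change -1.201 ± 0.10 (SE), adjusted p = 2.5e-05. ANLN, anillin of the contractile ring, had 32.6, 34.4 and 41.8 and 19.1, 13.7 and 15.8 FPKM, log2 fold change -1.18 ± 0.18 (SE), adjusted p = 0.000827, and CCNA2, cyclin A2, 30.8, 29.6 and 29.9 and 21.2, 18.01 and 18.99 FPKM, log2 fold change -0.66 ± 0.09 (SE), adjusted p = 0.000425. S phase and replication genes were mixed, with 12 of 45 higher and 8 lower (median 0.01, and -0.004 without control replicate 3 and treated replicate 1). The counts were 7 and 3 without control replicate 2 and 7 and 4 without treated replicate 2. The count lower was 5 without control replicate 1, control replicate 3 or treated replicate 3. Targets of p53 were 7 of 27 higher and 9 lower, and BCL2 family genes 4 of 16 higher and 2 lower. These counts and those of S phase genes are to be read against 20.4% and 18.2% of all genes. PLK3 rose by 1.48, TP53INP1 was at -1.08 and the proapoptotic PMAIP1 rose by 1.51.

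CENPF, a kinetochore protein, is printed as the G2 and M gene with the largest change among those with the motif (chr1:214602945-214603244, plus strand, GRCh38.p14). Its FPKM were 7.98, 11.3 and 27.8 in control and 4.53, 2.79 and 2.89 in treated libraries. The highest value is that of control replicate 3, which stood apart from its group, and the rank without that library is not given here. Capitals mark TTTGAA, a core of the cell cycle homology region. Of all promoters 15.4% held it on either strand, and 20 of 31 G2 and M members with a sequence did.
CENPF: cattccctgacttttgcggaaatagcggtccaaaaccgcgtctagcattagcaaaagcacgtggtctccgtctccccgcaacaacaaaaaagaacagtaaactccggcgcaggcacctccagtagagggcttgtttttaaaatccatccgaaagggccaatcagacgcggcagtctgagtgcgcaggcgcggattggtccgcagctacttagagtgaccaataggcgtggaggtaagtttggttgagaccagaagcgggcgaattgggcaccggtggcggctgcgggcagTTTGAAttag

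Metabolic lists held genes that rose and genes that fell, to be read against 20.4% higher and 18.2% lower among all genes. Cholesterol genes were 14 of 26 higher and 4 lower (median 0.39): INSIG1, which restrains sterol synthesis, had 20.3, 20.5 and 19.99 and 113, 121 and 127 FPKM, log2 fold change 2.502 ± 0.07 (SE), adjusted p = 7.38e-08, while SREBF2 fell by 0.30, a call lost without control replicate 1 or 2. Fatty acid and lipid droplet genes were 11 of 27 higher and 3 lower, or 5 lower without control replicate 3 and treated replicate 1, with PLIN2, a droplet coat protein, at 44.8, 40.8 and 40.4 and 137, 119 and 113 FPKM, log2 fold change 1.499 ± 0.10 (SE), adjusted p = 8.71e-06. Of 22 PPAR and oxidation genes 8 rose and 3 fell; the count higher was 5 without control replicate 1 or 2. PDK4, an inhibitor of pyruvate oxidation, had 5.49, 5.63 and 5.48 and 24.4, 27.1 and 29.2 FPKM, log2 fold change 2.15 ± 0.08 (SE), adjusted p = 4.45e-07, whereas TXNIP, the thioredoxin inhibitor, fell from 60.9, 62.7 and 52.5 to 13.95, 15.2 and 13.97 FPKM, log2 fold change -2.03 ± 0.08 (SE), adjusted p = 4.98e-07, and the coactivator PPARGC1A by 1.46. Ferroptosis regulators were 9 of 19 higher and 2 lower; GPX4, the lipid peroxide reductase, fell by 0.61 (adjusted p 0.0357), lost without controls 1 or 2, PM2.5 replicate 2 or treated replicates 2 or 3.

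Glycolysis and hypoxia genes were 10 of 33 higher and 11 lower; the count lower was 5 without control replicate 2, and 7 without either of treated replicates 2 and 3 or PM2.5 replicates 2 and 3. CA12, a carbonic anhydrase, rose by 1.94. Nuclear respiratory chain genes were 4 of 40 higher and 0 lower, but 0 higher and 7 lower without control replicate 3 and treated replicate 1, so the direction rests on those libraries. The 4 calls were also lost without control replicate 2 or 3 or treated replicate 1 or 2. None of 46 cytosolic ribosomal protein genes was called (median -0.06), while 8 were lower without the same 2 libraries, with a median of -0.39. The mitochondrial share of rebuilt reads was 6.37 ± 0.580% (SD, n = 3) in treated and 7.20 ± 0.832% (SD, n = 3) in control libraries, a difference within the spread (exact permutation test, 2-sided, p = 0.3; the smallest p this design allows is 0.1). Clock genes were 5 of 17 higher and 3 lower, near the 20.4% and 18.2% of all genes, with the repressor NR1D1 up by 1.78. Of 15 Notch pathway genes 1 was higher and 4 lower, with the ligand JAG1 at -1.897, and 3 were higher without control replicate 3 and treated replicate 1. The 1 called higher, NOTCH2 (0.69), lost its call without any 1 control or PM2.5 library or treated replicate 2 or 3.

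**Figure D4:**
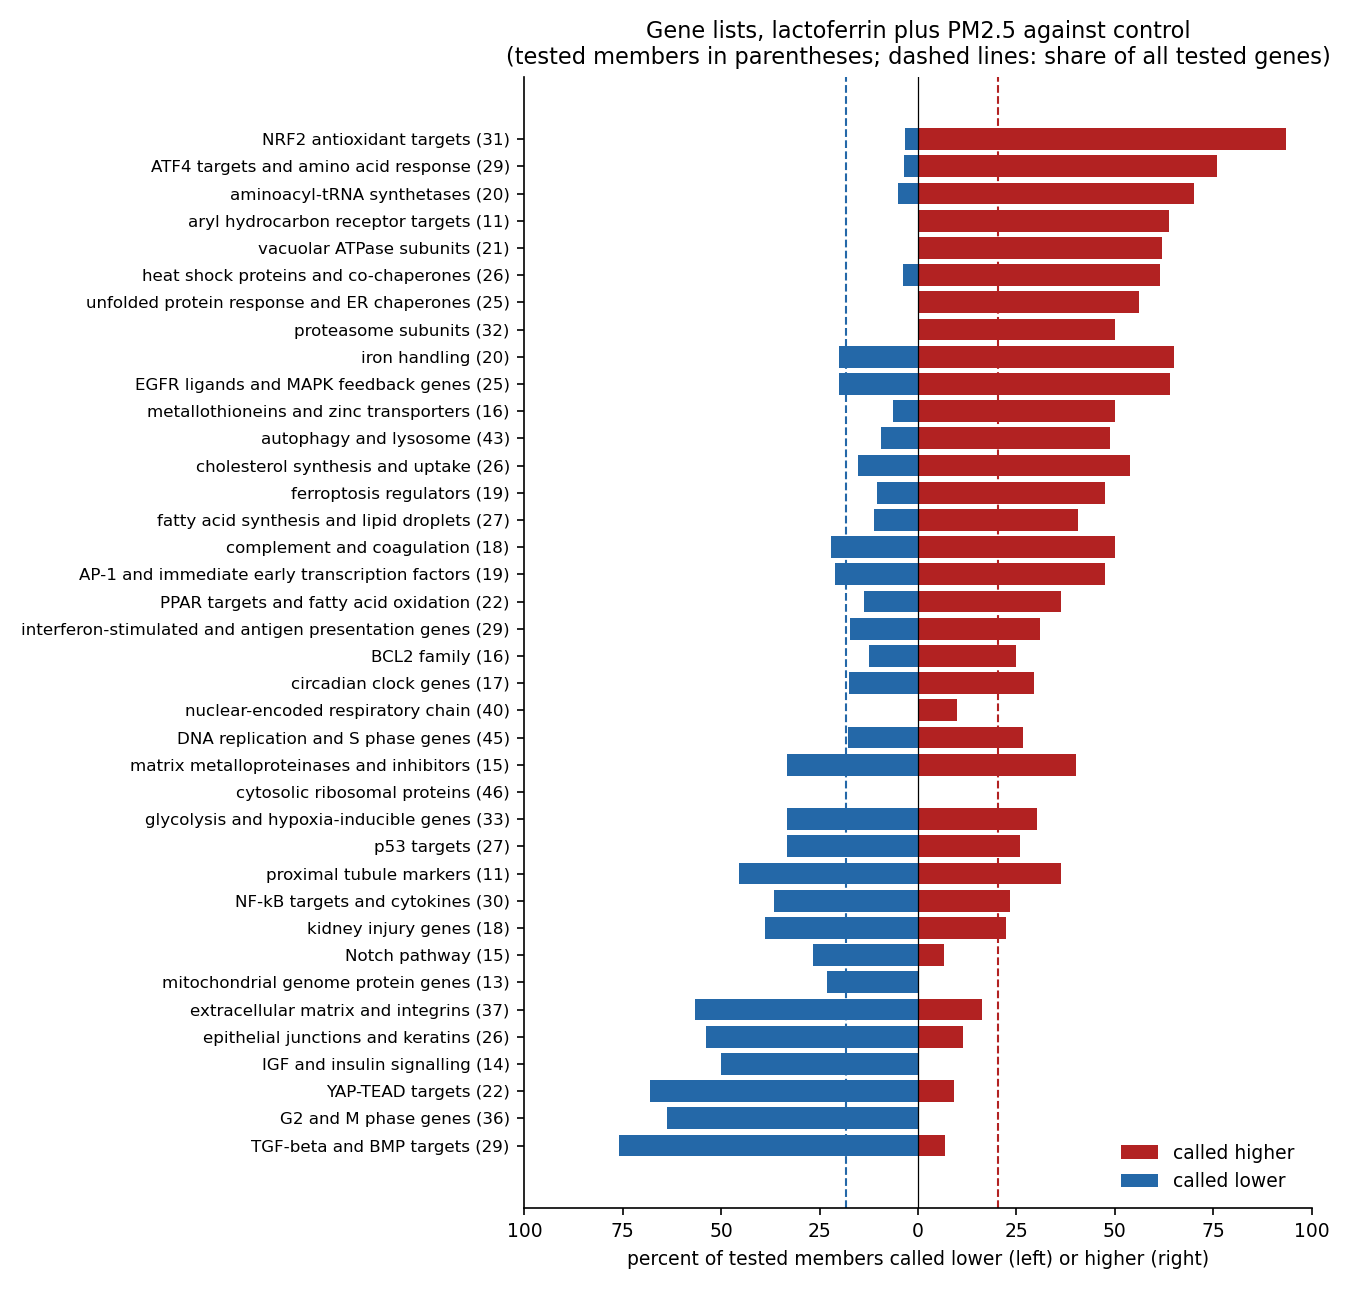
Percent of the tested members of each list with at least 10 tested genes that was called higher (right) or lower (left), with the number tested in parentheses and dashed lines at the shares of all genes, 20.4% and 18.2%. NRF2 targets are at the top, at 29 of 31 higher, and TGF-beta targets at the bottom, at 22 of 29 lower.

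Markers of tubule and other cell types were checked against the label, with 20.4% of all genes called higher and 18.2% lower. Of 32 proximal tubule markers 11 were tested, and 23 stayed below 1 FPKM in every library, among them the uptake receptor gene LRP2. The tested ones were split, 4 higher and 5 lower: MIOX, an inositol oxygenase of proximal tubule, rose from 7.599, 6.39 and 4.56 to 35.4, 30.2 and 24.9 FPKM, log2 fold change 2.18 ± 0.18 (SE), adjusted p = 2.74e-05, and the scaffold gene PDZK1 fell from 27.7, 28.1 and 31.8 to 6.38, 5.64 and 5.51 FPKM, log2 fold change -2.26 ± 0.13 (SE), adjusted p = 2.88e-06. Among markers of other cells found in the data, 18 of 19 distal, 27 of 33 squamous, 17 of 22 fibroblast and endothelial and 17 of 21 immune genes were below 1 FPKM everywhere. Summed over the list, immune markers ranged from 20.1 to 22.8 FPKM in control and 21.0 to 23.5 FPKM in treated libraries. Squamous markers summed to 95.4 to 104.5 FPKM in control and 69.2 to 80.3 in treated libraries. The sums were 60.8 to 64.1 and 57.5 to 61.3 FPKM for fibroblast and endothelial markers, and 3.67 to 4.74 and 2.49 to 3.38 for distal markers. The part of these markers in the results was not tested. Of the 4 tested immune markers FCER1G, shown above, and CSF1R (0.51) rose and CD74 fell (-0.48), while without control replicate 3 and treated replicate 1 only FCER1G was higher. The call of CSF1R was also lost without control replicate 2 or 3 or treated replicate 2 or 3. PTPRC, the pan-leukocyte CD45 gene, was at most 0.0116 FPKM in any library.

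The share of genes called differed by gene class, and the direction of change moved with exon length. Of 11606 protein coding genes 42.2% were called, of 496 lincRNAs 32.9% and of 650 antisense genes 24.8%, where reads of a gene and its antisense partner cannot be told apart without strand. Among the shortest of 4 equal groups of protein coding genes by exon length 786 rose and 359 fell, and among the longest 392 rose and 868 fell. Without control replicate 3 and treated replicate 1 these counts were 638 and 485 for the shortest and 530 and 675 for the longest. The median log2 fold changes then went from 0.11 to 0.01 for the shortest and from -0.16 to -0.06 for the longest, so much of this split moved with those 2 libraries. With all libraries, after a trend on length was removed from each, the counts were 715 and 516 for the shortest and 684 and 642 for the longest. With the trend removed 22 of 29 TGF-beta targets and 21 of 37 matrix genes were lower, the same numbers as without it. Clock genes were then 3 higher in place of 5, fatty acid and lipid droplet genes 5 lower in place of 3, and heat shock genes 2 lower in place of 1.

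Against PM2.5 alone 7 of 14454 genes (0.0484%) were called, while 5570 were called against control. That count depended on the fit: it was 1831 with library quality weights, 21 under a filter of 1 FPKM in every library of a group, 16 with limma-voom and 12 without control replicate 3 and treated replicate 1. These comparisons share the lactoferrin plus PM2.5 libraries. With PM2.5 alone HMOX1 averaged 832 FPKM and IGFBP3 2.19 FPKM. HSPA6 averaged 3.002 FPKM with PM2.5 alone and 6.54 with both, and PDK4 16.3 and 26.9. RNF144B, an E3 ubiquitin ligase, had 11.6, 11.5 and 10.6 FPKM in control, a mean of 5.35 with PM2.5 and 2.45, 2.94 and 3.23 with both, and JAG1 10.3, 10.4 and 10.9, 5.402 and 1.95, 2.86 and 2.86; both fell further than with PM2.5 alone. LCN2, the iron-scavenging lipocalin NGAL, was at 2.25, 2.01 and 2.05 FPKM in control and 1.83, 1.898 and 2.19 with both, adjusted p 0.426 against control, but at a mean of 4.86 with PM2.5. CLEC4E, a pattern recognition receptor, showed the same order, 2.05, 1.92 and 2.08 in control, 3.65 as the PM2.5 mean and 1.69, 1.66 and 2.07 with both, adjusted p 0.207 against control. RPS27P4, a ribosomal protein pseudogene, was at 1.79, 1.18 and 0.899 FPKM in control, a mean of 0.649 with PM2.5 and 3.13, 2.74 and 3.24 with both. The count of 7 fell to 0 when PM2.5 replicate 1 or 2 or treated replicate 2 was left out, to 3 without PM2.5 replicate 3 and to 4 without control replicate 1 or 2.

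**Figure D5:**
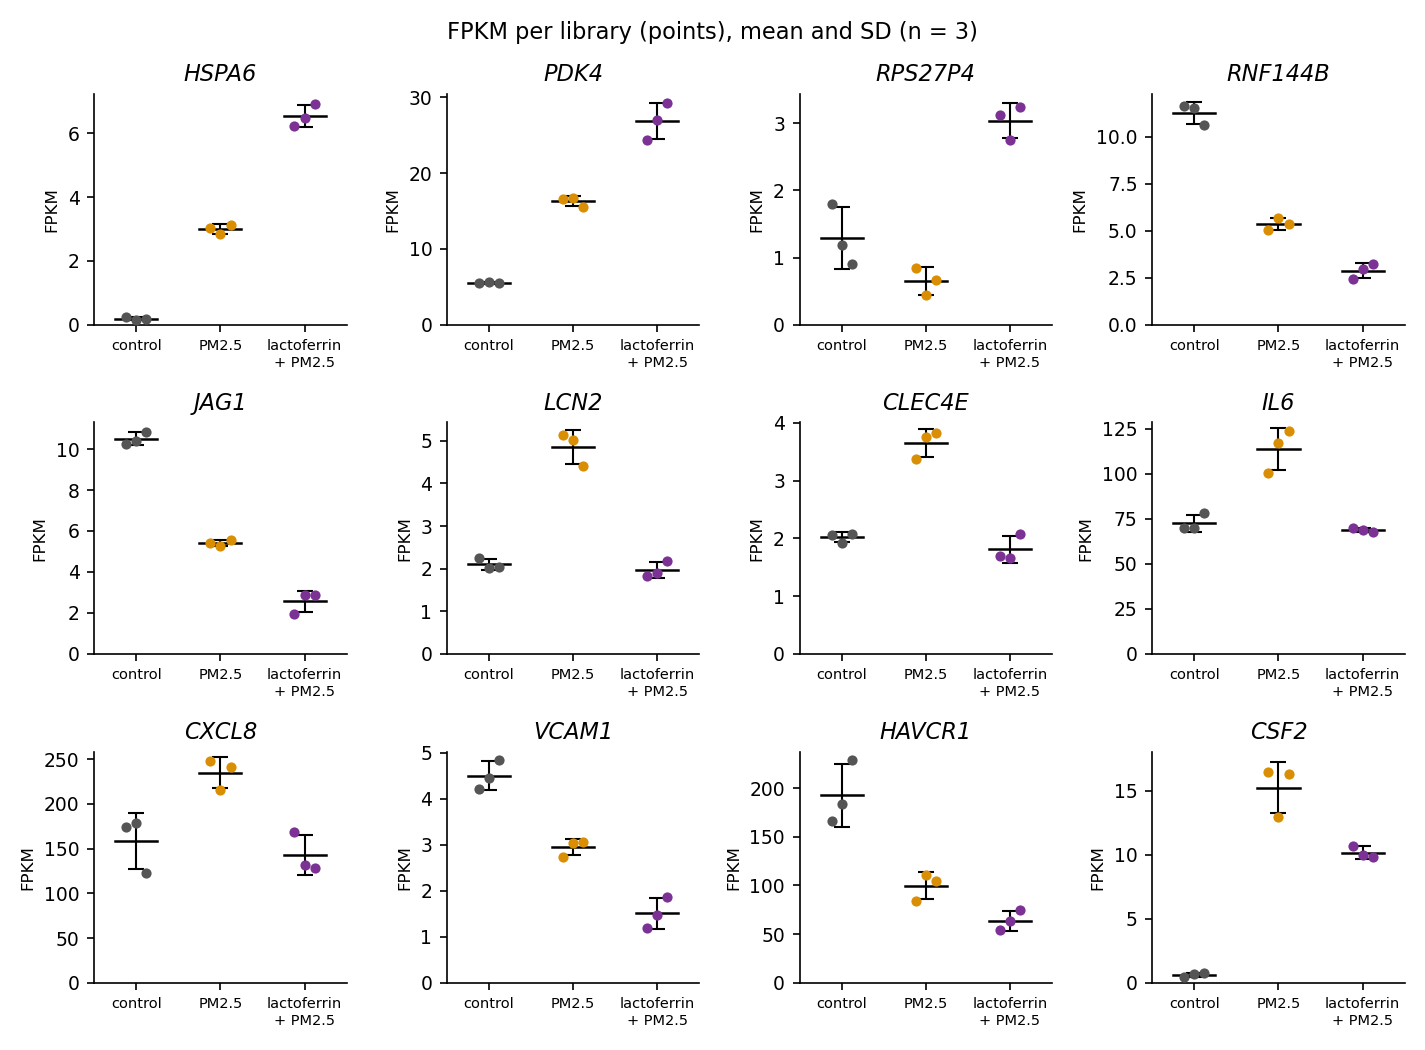
FPKM of 12 genes in each library (points) with the mean and SD of each group (n = 3), the vertical axes starting at 0; 5 of the panels (IL6, CXCL8, VCAM1, HAVCR1 and CSF2) are not called against PM2.5. LCN2 and CLEC4E are raised with PM2.5 alone (means of 4.86 and 3.65 FPKM) and near control with lactoferrin plus PM2.5 (1.97 and 1.81 FPKM).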

How the data were processed

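RNA from 9 HK-2 libraries was measured by sequencing. Each sample's file held the FPKM deposited for 58884 Ensembl genes; the unit was inferred from the values. The submitters' processing notes name the build GRCh38, featureCounts 1.6.0, HISAT2 2.1.0, Trimmomatic 0.38, DESeq2 1.22.1, MultiQC, FastQC and CASAVA. No annotation release or strand setting is stated in the sources used here. FPKM times GENCODE 29 exon length gave whole reads for 86.0% to 87.3% of low values (within 0.05), and these reads set the depth. FPKM were divided by trimmed mean of M values factors (0.943 to 1.037), and log2(FPKM + 0.5) of all 9 libraries was fitted with 3 group means in limma 3.58.1 (R 4.3.3; trend, robust). The groups share 1 estimate of the spread, and p-values were adjusted by Benjamini-Hochberg over 14454 genes. The factors were first computed unweighted on FPKM, which gave 2875 genes higher and 2676 lower; the weighted factors on rebuilt reads, used throughout, replaced them after both counts had been seen.

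Members, gene lists and the rule for named genes were chosen with earlier results of these data known. The rule took the 15 largest changes each way (mean FPKM at least 2, groups not overlapping), the 4 smallest adjusted p per list and members against the majority, genes called against both control and PM2.5, the most abundant genes and genes of the study question; some it selects are not described. CENPF, CHAC1, CLEC4E, MT2A and PTPRC fall outside this rule. CENPF, CHAC1 and MT2A were taken as the members with the largest change that held a promoter motif, so their values decided the choice. CLEC4E was chosen after its values were seen, and PTPRC is a listed immune marker under the filter. Promoters are from RefSeq (GRCh38.p14). Alternatives covered scaling, filters, pseudocounts, 6 libraries only, voom, quality weights, a replicate block, gene length and leaving out libraries. The test was also run on simulated libraries with the same spread setting for all genes and no outlying library. These data differ in both respects, so nothing is concluded from that run.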

Additional observations from a re-analysis of the deposited data

Results flagged for a closer look

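The 7 genes whose level differed between lactoferrin plus PM2.5 and PM2.5 alone were tested as a difference between the 2 effects against control (limma, adjusted over 14454 genes; 0.0484% of genes). HSPA6 was higher by 1.01 on the log2 scale with lactoferrin plus PM2.5, PDK4 by 0.71 and the pseudogene RPS27P4 by 1.64. LCN2 was lower, at -1.11, as were JAG1 at -0.95, CLEC4E at -0.84 and RNF144B at -0.79. All 3 libraries of each group lay apart from those of the other group for these genes. They were picked by the same comparison of these libraries, so this separation is no further support. The share of all genes so separated was not counted here. The exposed groups also differed in PM2.5 time (18 h and 24 h), so lactoferrin and time cannot be told apart here.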

How the results depend on the processing

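The counts of genes higher and lower against control stayed within 1.5 times of 2946 and 2624 under all 24 alternatives but the library quality weights. Leaving out 1 library gave 2214 to 2834 genes higher and 1892 to 2604 lower, and 492 to 536 and 482 to 642 at 2-fold or more. Between 4148 and 5547 of the 5570 called genes were called again. Quality weights by limma's gene-by-gene method gave 4250 higher and 3983 lower, and 1831 called against PM2.5. That method replaced weights by REML, which did not converge and gave 5623, 5387 and 6428; the switch was made after those counts were seen. Genes lower by at least 2-fold were 953 with limma-voom and 381 with a pseudocount of 1, against 586. The 7 genes called against PM2.5 became 21 under the filter of 1 FPKM in every library of a group, 16 with voom, 14 with the length trend removed, 12 without control replicate 3 and treated replicate 1 together, and 0 to 6 on leaving out 1 library. The cause of these shifts was not tested. REML weights, the unweighted factors and the length trend were added after seeing the data.

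With the replicate number as a block 3176 genes were higher, 2855 lower and 13 called against PM2.5. Same-numbered control and treated libraries correlated at 0.115, 0.0825 and 0.0728 in their deviations, and differently numbered ones at -0.149 to 0.0736. The labels do not say what libraries of the same number share, so the main fit has no block. Whether the numbers mark pairs cannot be told from these values. Of 6620 values of the 278 named genes under the alternatives 0 reversed, 321 lost and 12 gained a call, and 6287 kept their side. The difference in mitochondrial share ranged from -1.25 to -0.422 percentage points on leaving out 1 library. Depth limits genes near 0.5 FPKM.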

Other observations

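Gene families chosen by symbol after the values were seen gave further counts, beside 20.4% of all genes higher and 18.2% lower. They come from the main fit only and were not counted again without control replicate 3 and treated replicate 1. Of 27 tested histone genes 14 fell and 0 rose (median log2 fold change -0.61). Of 79 mitochondrial ribosomal protein genes (MRPL and MRPS) 23 rose and 3 fell (0.33). Kinesin genes (KIF), motors that include mitotic ones, were 1 of 29 higher and 12 lower (-0.37). Several of those lower, such as KIF11, KIF14, KIF20A and KIF23, are also counted among the G2 and M phase genes. Solute carriers (SLC) were 76 of 220 higher and 36 lower (0.16), and zinc finger genes (ZNF) 52 of 440 higher and 64 lower (-0.06).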
